A study of Mus musculus with 20 samples.

Results

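The genes described here code for enzymes that oxidize, conjugate or reduce drugs, aldehydes and retinoids, or that remove peroxides and superoxide, measured by expression arrays in 5 sorted populations of osteoblastic cells from mouse bone. They were picked by a pattern of gene symbols, set with earlier results of these data known: cytochromes P450, flavin monooxygenases, epoxide hydrolases, glutathione transferases, aldehyde dehydrogenases, aldo-keto, carbonyl and quinone reductases, alcohol and retinol dehydrogenases, superoxide dismutases, glutathione peroxidases, peroxiredoxins with sulfiredoxin, thioredoxin family genes and the glutamate-cysteine ligase subunits. Of the 9129 genes tested, 84 had a matching symbol, and 81 remained after Cyp2f2, Cyp51 and Aldh1a2 were set aside by the rule. Each gene was read from a single probe set, the brightest on average where it had more. The name pattern also takes in a few genes with other roles, such as Txnip, whose product binds and inhibits thioredoxin, and Txnl4a, which codes for a spliceosome protein. Nqo1 and the UDP-glucuronosyltransferases were not analysed here.

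All cells were freshly isolated from the bones of untreated wild-type male C57BL6 mice, 8 weeks old, after collagenase digestion, and were sorted as negative for blood lineage markers and for the endothelial marker CD31 and positive for CD51, the integrin alpha V chain. SL cells were low for Sca-1 and negative for PDGFRa. The other populations were negative for Sca-1: AB cells were positive for PDGFRa and PDGFRb, B cells for PDGFRb alone, A cells for PDGFRa alone, and DN cells were negative for PDGFRa. The sign of the PDGFRb gate in the labels of SL and DN cells could not be read with certainty. Each population had 4 arrays, and the labels do not say whether replicates came from separate mice or sorts, so the tests measure the spread between these arrays.

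Detoxification is usually described in steps. Phase I enzymes such as the cytochromes P450 and flavin monooxygenases add or expose an oxygen group with electrons from NADPH, and phase II enzymes such as the glutathione transferases attach glutathione or another polar group. Aldehyde dehydrogenases and carbonyl reductases clear the aldehydes and ketones that arise from lipid peroxidation, alcohols and retinol. A separate set of enzymes keeps peroxide low: superoxide dismutases make hydrogen peroxide from superoxide, and glutathione peroxidases and peroxiredoxins reduce it with electrons from glutathione or thioredoxin. Many of these genes are known targets of the transcription factors NRF2 and AHR, and aldehyde dehydrogenase activity is used to mark progenitor cells in bone marrow and other tissues.

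The labels were first set against the sorted markers. The log2 signal of Ly6a, which codes for Sca-1, was 10.79, 10.30, 10.54 and 10.42 in SL cells, 7.09, 7.24, 8.72 and 10.05 in AB cells and 7.01, 7.10, 10.18 and 10.90 in B cells. Ly6a was 8.03, 7.25, 7.45 and 8.15 in A cells and 7.27, 7.03, 7.54 and 8.28 in DN cells. Replicates 3 and 4 of AB and B, sorted as Sca-1-negative, stood apart from replicates 1 and 2. The 8 measured markers of Sca-1-positive fibroblasts averaged 9.60 to 10.09 in SL, 7.76 to 9.58 in AB, 7.29 to 9.94 in B, 8.05 to 8.53 in A and 7.18 to 8.01 in DN cells. Pdgfra was 10.10 to 10.34 in SL cells and 8.63 to 9.54 in B cells, both sorted as PDGFRa-negative. It was 9.54 to 9.80 in AB, 8.95 to 9.15 in A and 7.50 to 8.16 in DN cells, so its mRNA did not follow the gate in SL and B cells. The osteoblast genes Col1a1, Alpl and Runx2 were at a log2 signal of 9.92 or more on every array. Sp7, another osteoblast gene, was dimmer, from 7.35 in SL replicate 3 to 8.91 in A replicate 1. The 9 osteoblast markers averaged 9.27 to 9.47 in SL, 10.08 to 10.40 in AB, 9.89 to 10.33 in B, 10.37 to 10.71 in A and 10.22 to 10.53 in DN cells. The 11 chondrocyte markers averaged 9.14 to 9.48 in SL, 8.40 to 9.37 in AB, 8.94 to 10.16 in B, 11.25 to 11.51 in A and 11.47 to 11.89 in DN cells. Array medians lay between 6.39 and 6.46, and r across genes was 0.951 to 0.983 for arrays of the same population.

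Of the 81 genes, 49 differed among the 5 populations (60.5%), against 50.6% of all genes tested (limma moderated F test, Benjamini-Hochberg adjusted over all genes). Of those 49, 31 had their lowest mean in DN cells, and the highest mean was in SL cells for 17, AB cells for 13, B cells for 6, A cells for 4 and DN cells for 9. The highest and lowest populations were not counted over all genes tested, so these counts describe the 49 genes only. Prdx2, Txnrd1, Srxn1 and Aldh1l2 had higher means in A and DN cells than in SL, AB and B cells. By class, the F test called 8 of 9 P450 genes, both flavin monooxygenases, Ephx1, 9 of 11 glutathione transferases, 6 of 12 aldehyde dehydrogenases, 5 of 9 aldo-keto, carbonyl and quinone reductases and 5 of 7 alcohol and retinol dehydrogenases. Of the redox classes it called 2 of 3 superoxide dismutases, 2 of 4 glutathione peroxidases, 2 of 7 peroxiredoxins and sulfiredoxin, 6 of 14 thioredoxin family genes and 1 of 2 glutamate-cysteine ligase subunits.

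**Figure D1:**
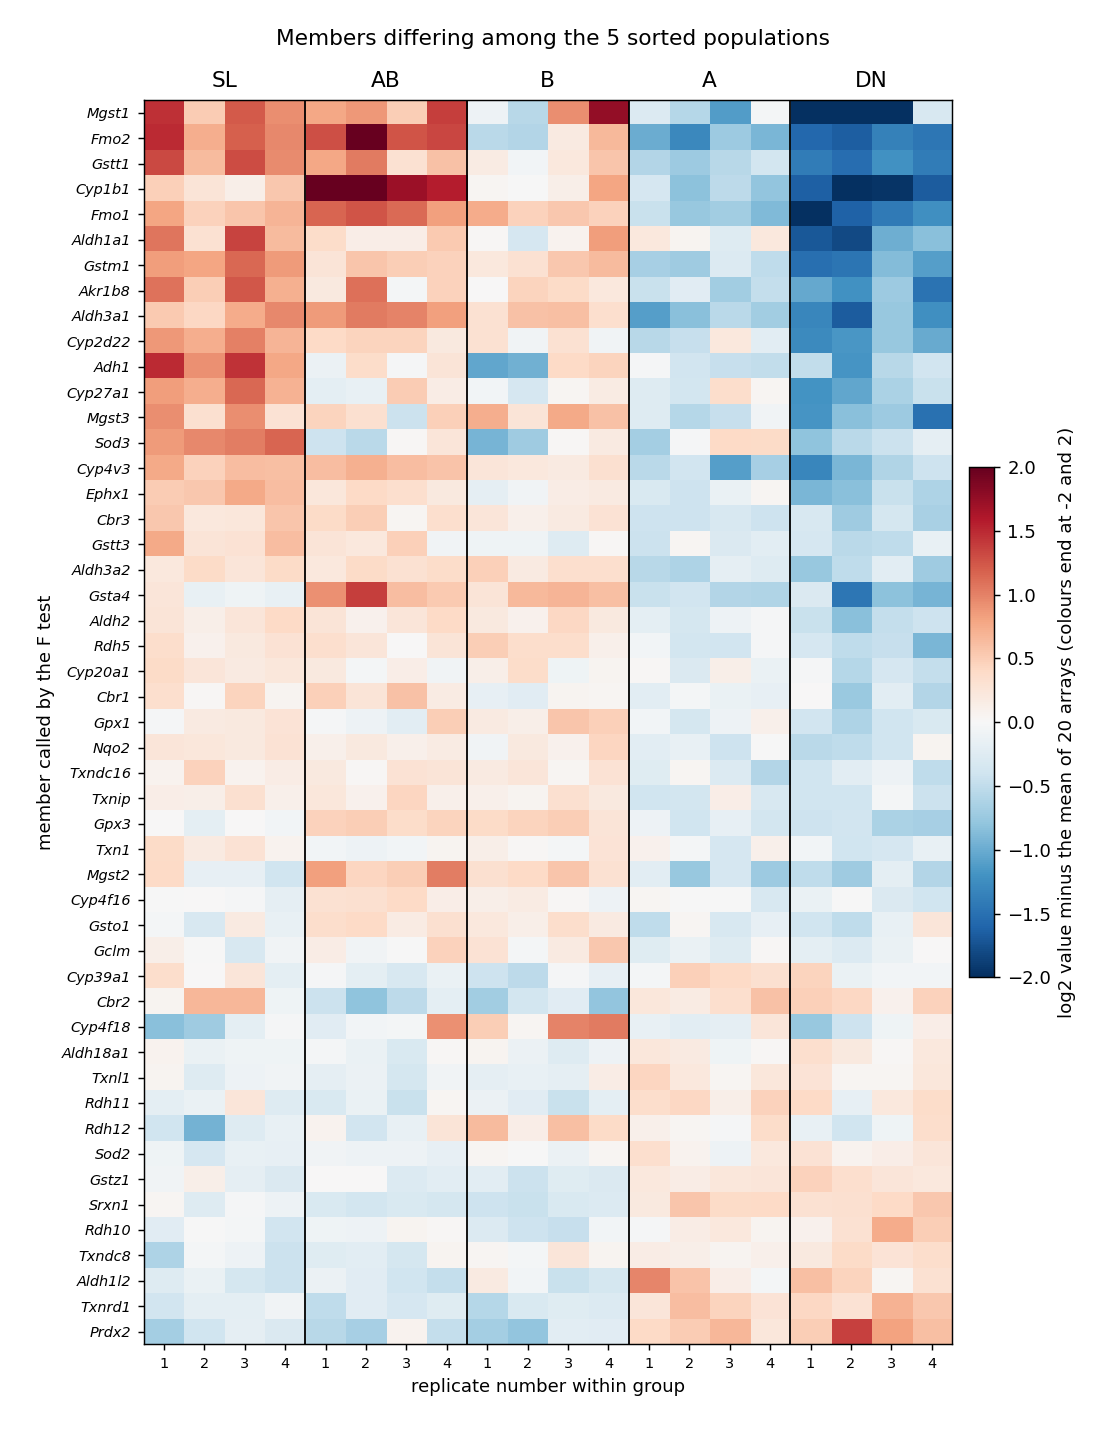
Log2 values of the 49 genes called by the F test (rows) on the 20 arrays (columns, 4 per population), each row minus its mean over the arrays, in red above and blue below it. Rows are ordered by the difference of SL from DN cells, which runs from 2.95 for Mgst1 at the top to -1.20 for Prdx2 at the bottom.

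In SL against DN cells, 33 of the 81 genes were higher, where 23.9% of all genes tested were higher, and 9 were lower, where 21.3% were lower. The median difference of the members was 0.11 log2 units, against 0.01 over all genes. In AB against A cells, 25 were higher and 9 lower, with 17.7% and 15.2% of all genes called in those directions and medians of 0.10 for the members and 0.03 for all genes. In B against A cells, 23 were higher and 11 lower, beside 15.1% and 14.6% of all genes, with medians of 0.08 and 0.03. With B and AB from replicates 1 and 2 alone, without the arrays of high Ly6a, B against A cells had 15 higher and 11 lower, and AB against A cells 21 higher and 6 lower. Of all 9129 genes, that fit called 2376 in B against A cells, 1171 of them higher, and 2443 in AB against A cells, 1280 of them higher. As reported, higher genes were above the background share in all 3 comparisons, and the lower genes of B against A cells were close to it. AB against A and B against A share the A arrays, so their counts are not independent.

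In A against DN cells, 8 genes were higher, beside 2.89% of all genes, and 0 were lower, beside 0.635%. At an unadjusted p under 0.05, limma gave 20 higher and 1 lower. Shares of all genes at an unadjusted p were not counted, here or for the unadjusted counts that follow, which describe the members only. The 8 genes higher at the adjusted threshold were Aldh1a1, Cyp1b1, Cyp27a1, Cyp2d22, Ephx1, Fmo1, Gstm1 and Gstt1. In AB against B cells, 2 genes were higher, Cyp1b1 and Fmo2, beside 1.12% of all genes, and 0 were lower, beside 0.405%; at an unadjusted p under 0.05 these counts were 11 and 4. In SL against AB cells, 5 were higher and 6 lower, beside 4.43% and 4.92% of all genes. A test of whether the step from A to AB differed from the step from DN to B called 0 of the 81 genes and 61 of all 9129 (0.668%), and 2 members were above and 11 below 0 in that test at an unadjusted p under 0.05 (limma).

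**Figure D2:**
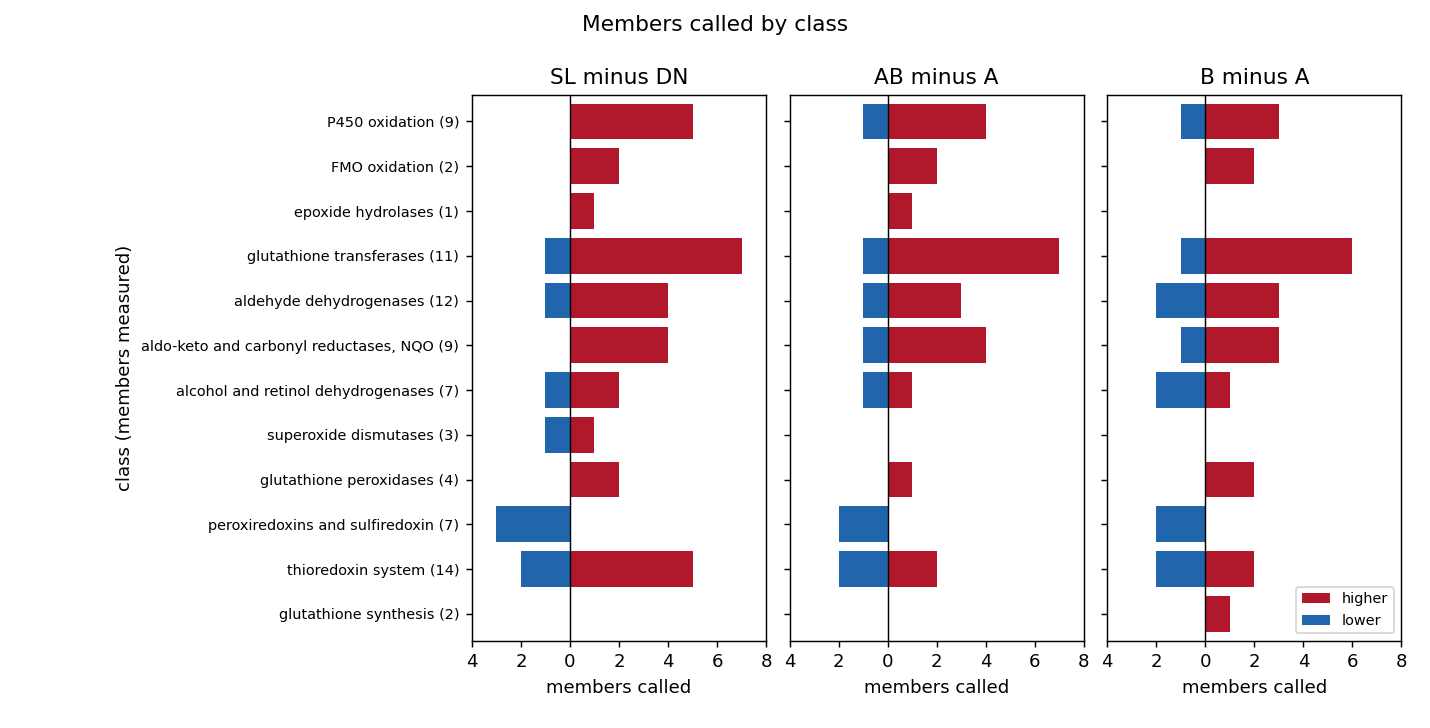
Number of genes called higher (red, to the right) and lower (blue, to the left) at an adjusted p under 0.05 by class, in SL against DN, AB against A and B against A cells, with the number of measured genes of the class in brackets. Glutathione transferases had 7, 7 and 6 genes called higher, and the peroxiredoxins with sulfiredoxin had 3, 2 and 2 called lower. Of all genes, 23.9%, 17.7% and 15.1% were higher and 21.3%, 15.2% and 14.6% lower.

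Among the oxidation enzymes, Cyp1b1 had the widest range of group means of all 81 genes, 3.78 log2 units. It codes for a cytochrome P450 that oxidizes oestrogens, retinoids and polycyclic hydrocarbons and is a known AHR target. Its log2 signal was 7.81, 7.59, 7.45 and 7.88 in SL cells, 9.36, 9.69, 9.05 and 8.91 in AB cells and 7.38, 7.33, 7.45 and 8.12 in B cells. Cyp1b1 was 7.00, 6.52, 6.81 and 6.55 in A cells and 5.70, 5.13, 5.37 and 5.67 in DN cells. The AB arrays stood above every array of the other populations and the DN arrays below every other array, with no overlap between AB and B, AB and A, or A and DN. The difference was 2.53 ± 0.19 log2 units in AB over A cells (SE, adjusted p = 5.67e-09), 1.68 ± 0.19 in AB over B (3.22e-05), 1.25 ± 0.19 in A over DN (0.00057) and 2.21 ± 0.19 in SL over DN cells (1.23e-08). Against AB cells, SL cells were lower by 2.97-fold (difference -1.57 ± 0.19, adjusted p = 1.44e-05). The gene lies at chr17:79706953-79715041 on the minus strand. In bulk samples such as these, more cells with a transcript and more transcript per cell cannot be told apart, here and in every later result. The reticular stroma list, 9 markers of CXCL12-rich marrow stroma, was also highest in AB cells, at 10.23 to 10.93, against 7.80 to 8.31 in SL, 8.96 to 9.36 in B, 8.19 to 8.34 in A and 7.23 to 7.60 in DN cells. Its part in the level of Cyp1b1 was not tested.

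The promoter of Cyp1b1 was searched for GCGTG, the core of the sequence bound by AHR with ARNT, on both strands, in RefSeq windows that run from 250 bases before to 50 after a transcription start (GRCm38.p6). Promoters were found by symbol for 66 of the 81 genes, and 36 of them (54.5%) held the core, against 35.2% of 27025 genes. The 27025 are all genes with a RefSeq promoter, also those not measured here, while the 66 passed the signal filter. The shares are thus of unlike sets. This core is short and frequent, so its presence is a description of the sequence and not a site. The windows below show it in capitals with its flanks for Cyp1b1, called in all 6 comparisons, where it reads CACGC on the strand of the gene, and for Gstm1, called in 5 of them.
Cyp1b1: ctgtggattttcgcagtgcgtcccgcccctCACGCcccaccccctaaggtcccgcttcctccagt
Gstm1: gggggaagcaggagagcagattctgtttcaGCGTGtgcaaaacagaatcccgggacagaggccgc
The first spans chr17:79715103-79715167 and the second chr3:108018015-108018079, both read from the minus strand, and in both the match begins 76 bases before the start. Of the 36 genes with the core, 14 were higher and 4 lower in SL against DN cells. Among all 66 genes with a promoter, 27 were higher and 6 lower.

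Both measured flavin monooxygenases, which oxidize nitrogen and sulfur atoms of drugs and amines, were low in DN cells. Fmo2 was 8.19, 7.42, 7.89 and 7.66 in SL cells, 7.99, 8.70, 7.95 and 8.04 in AB cells and 6.16, 6.11, 6.88 and 7.34 in B cells. Fmo2 was 5.71, 5.41, 5.97 and 5.78 in A cells and 5.13, 5.05, 5.34 and 5.26 in DN cells. SL and AB arrays lay above all B, A and DN arrays, and the 2 B arrays with high Ly6a, replicates 3 and 4, were the highest of the B arrays. The difference was 2.60 ± 0.23 in SL over DN cells (SE, adjusted p = 2.34e-08), 2.45 ± 0.23 in AB over A (9.95e-08) and 1.54 ± 0.23 in AB over B (0.000771). In B over A cells it was 0.91 ± 0.23 (0.00554), and this call was lost with only replicates 1 and 2 of B and AB (adjusted p = 0.162). Fmo1, its neighbour on chromosome 1, was 9.46, 9.13, 9.23 and 9.35 in SL cells, 9.84, 9.93, 9.81 and 9.49 in AB cells and 9.42, 9.14, 9.21 and 9.14 in B cells. Fmo1 was 8.23, 7.92, 7.97 and 7.79 in A cells and 6.62, 7.06, 7.26 and 7.44 in DN cells. It was called in every comparison except AB against B, with 2.20 ± 0.15 in SL over DN cells (4.73e-10) and 1.79 ± 0.15 in AB over A cells (1.44e-08). AB cells were highest, but the lower level in SL against AB cells, -0.47 ± 0.15 (adjusted p = 0.0467), was lost without replicate 2, 3 or 4 of SL, without replicate 1, 2 or 3 of AB, and without any of 7 single arrays of B, A and DN, with adjusted p-values from 0.0501 to 0.14.

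**Figure D3:**
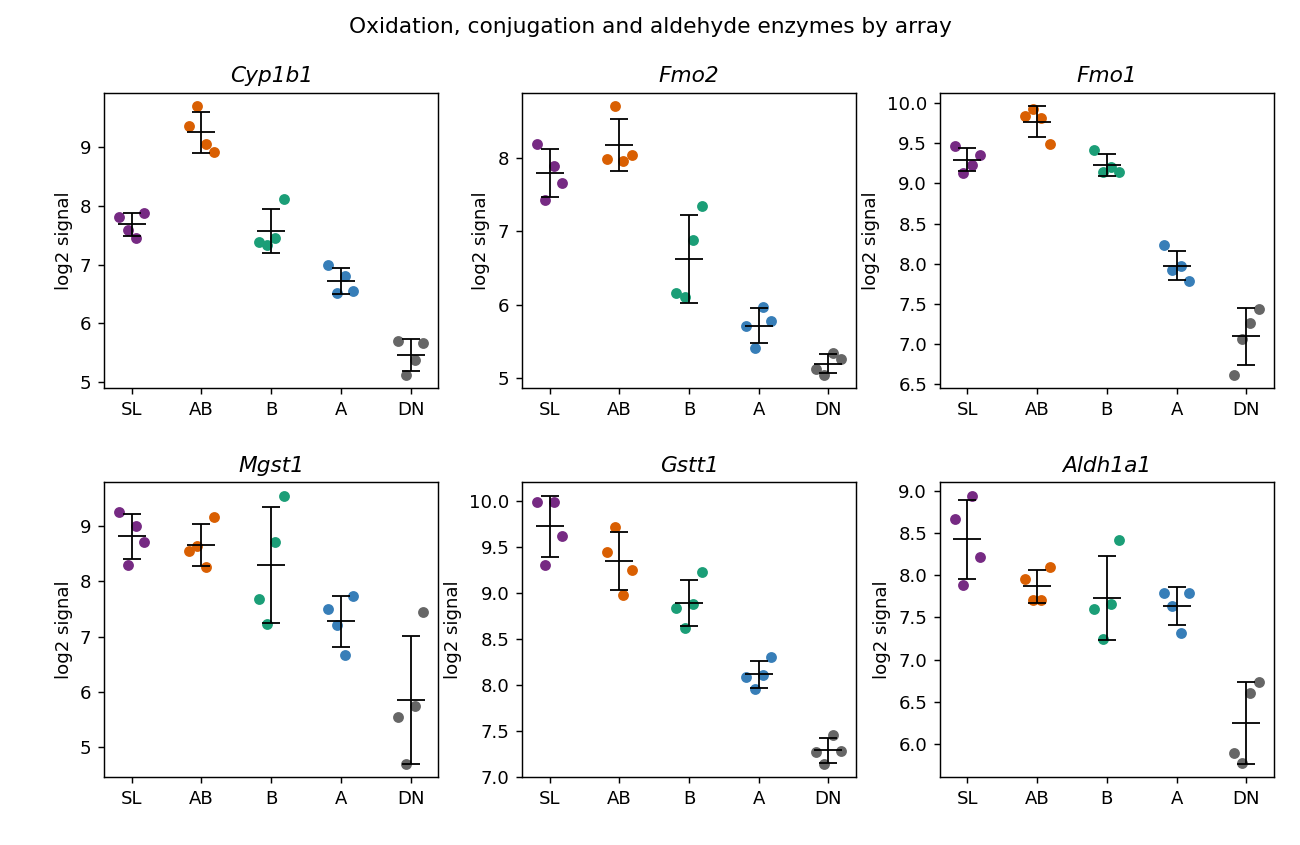
Log2 signal of Cyp1b1, Fmo2, Fmo1, Mgst1, Gstt1 and Aldh1a1 on each array (points) in the 5 populations, with the mean and SD of 4 arrays (bars). The axes do not start at 0 and differ between genes; Cyp1b1 peaks in AB cells at 9.25, and all 6 genes are lowest in DN cells.

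Cyp27a1, Cyp2d22, Cyp20a1 and Ephx1 had their highest means in SL cells. Cyp27a1, the mitochondrial sterol hydroxylase that makes oxysterols and bile acids, averaged 8.09 ± 0.21 in SL, 7.31 ± 0.32 in AB, 7.19 ± 0.22 in B, 7.19 ± 0.32 in A and 6.41 ± 0.34 in DN cells (SD, n = 4 each). SL arrays were above all AB, B, A and DN arrays, and the differences were 1.68 ± 0.19 in SL over DN (4.34e-07) and 0.78 ± 0.19 in SL over AB cells (0.0103). Cyp2d22, a member of the drug-oxidizing CYP2D family, was also highest in SL cells, with 1.87 ± 0.15 in SL over DN cells (6.61e-09). Cyp4v3, a fatty acid hydroxylase, had similar levels in SL and AB cells (7.73 and 7.75), with 7.35 in B, 6.44 in A and 6.31 in DN cells, and rose by 1.30 in AB over A cells (1.91e-06). Ephx1, the microsomal epoxide hydrolase that opens the epoxides P450 enzymes form, was 10.43, 10.46, 10.68 and 10.54 in SL cells, 10.15, 10.33, 10.27 and 10.13 in AB cells and 9.75, 9.86, 10.08 and 10.10 in B cells. Ephx1 was 9.62, 9.51, 9.79 and 9.96 in A cells and 9.01, 9.09, 9.49 and 9.31 in DN cells. Its SL arrays lay above all others, by 1.30 ± 0.12 over DN cells (2.81e-08), and its AB arrays above all A arrays, by 0.50 ± 0.12 (0.00268).

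In A over DN cells, Ephx1 and Cyp27a1 were called with differences of 0.50 ± 0.12 and 0.77 ± 0.19 (adjusted p = 0.0226 and 0.0252). Both calls were lost without replicate 3 or 4 of A or replicate 1 or 2 of DN, with adjusted p-values from 0.0623 to 0.0932 for Ephx1 and from 0.0771 to 0.0916 for Cyp27a1, and with the A and DN arrays alone in the fit (0.114 and 0.0775). Cyp26b1, which breaks down retinoic acid, was not called in any of the 6 comparisons, with means of 9.61 in SL, 9.61 in AB, 10.15 in B, 9.93 in A and 9.75 in DN cells.

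The glutathione transferases, which attach glutathione to electrophiles, had 7 of 11 members higher and 1 lower in SL against DN cells. These are 63.6% and 9.09%, beside 23.9% and 21.3% of all genes. The 7 include Mgst2 (adjusted p = 0.0469), whose probe sets disagree and whose call was lost without any 1 of 11 arrays (adjusted p from 0.0502 to 0.198). Mgst1, a membrane-bound transferase and peroxidase, had the largest difference of all members, 2.95 ± 0.48 log2 units or 7.75-fold in SL over DN cells (SE, adjusted p = 4.81e-05). Its log2 signal was 9.24, 8.29, 9.0 and 8.70 in SL cells, 8.55, 8.64, 8.26 and 9.16 in AB cells and 7.67, 7.22, 8.71 and 9.54 in B cells. Mgst1 was 7.50, 7.20, 6.66 and 7.73 in A cells and 5.54, 4.70, 5.74 and 7.45 in DN cells. The spread within B and DN cells was wide (SD 1.04 and 1.16). Replicate 4 was the highest array of AB, B, A and DN cells alike, and the SL and DN arrays did not overlap. In AB over A cells the difference was 1.37 ± 0.48 (adjusted p = 0.0339). This call was lost without replicate 1, 2 or 4 of AB or replicate 2 or 3 of A (adjusted p from 0.057 to 0.0948). In B over A and A over DN cells, with 1.01 and 1.42, it did not pass the threshold (0.124 and 0.122). The endothelial list (2 measured markers) was also highest in SL cells, at 6.66 to 7.84, against 5.39 to 6.42 in AB, 5.60 to 7.26 in B, 5.22 to 5.98 in A and 5.16 to 6.18 in DN cells. The neutrophil list (13 genes) was highest at replicate 4 in every population, with 10.00 in SL, 10.66 in AB, 11.07 in B, 10.34 in A and 10.05 in DN cells, against at most 9.32, 9.73, 10.73, 10.04 and 9.37 on the other arrays. The monocyte and macrophage list (4) and the erythroid list (3) were also highest at replicate 4 in each. The part of these lists in the level of Mgst1 was not tested.

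Gstt1 and Gstm1, cytosolic transferases of the theta and mu classes, were higher in A than DN cells and higher in B and AB than A cells. Gstt1 was 9.99, 9.30, 9.98 and 9.62 in SL cells, 9.44, 9.71, 8.97 and 9.25 in AB cells and 8.83, 8.62, 8.88 and 9.23 in B cells. Gstt1 was 8.09, 7.95, 8.11 and 8.30 in A cells and 7.27, 7.14, 7.46 and 7.28 in DN cells. No A array reached the lowest B or AB array and no DN array reached the lowest A array, and SL cells exceeded DN cells by 2.43 ± 0.16 (5.82e-10). Gstm1 was 10.04, 10.00, 10.36 and 10.07 in SL cells, 9.47, 9.77, 9.70 and 9.67 in AB cells and 9.42, 9.51, 9.75 and 9.85 in B cells. Gstm1 was 8.54, 8.50, 8.94 and 8.71 in A cells and 7.71, 7.75, 8.35 and 8.11 in DN cells. It was 2.14 ± 0.14 higher in SL than DN cells (4.6e-10), 0.96 ± 0.14 higher in B than A (2.91e-05) and 0.69 ± 0.14 higher in A than DN cells (0.00804, and 0.0597 with those arrays alone in the fit). Its smaller difference in SL over AB cells, 0.46 ± 0.14 (adjusted p = 0.045), was lost without any 1 of the 8 SL and AB arrays (adjusted p from 0.0582 to 0.164) and without replicate 3 of B or replicate 1 or 4 of A (0.0501 to 0.0546). Mu-class genes are close copies of each other, so probe sets of Gstm1 may also read other members of the cluster.

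Gsta4 had its highest mean in AB cells. Gsta4, which conjugates the lipid peroxidation product hydroxynonenal, averaged 6.35 ± 0.19 in SL, 7.24 ± 0.39 in AB, 6.93 ± 0.20 in B, 5.88 ± 0.11 in A and 5.52 ± 0.48 in DN cells. It rose by 1.36 ± 0.20 in AB over A (2.07e-05) and by 1.05 ± 0.20 in B over A cells (0.000396), and it was lower in SL than AB cells by 1.85-fold (difference -0.89 ± 0.20, adjusted p = 0.00533). Its lowest AB array had an intensity of 120, the best such minimum of any population. Gsta4 may thus have passed the signal filter through the cells where it is high. Mgst2, a membrane transferase that also makes leukotriene C4, averaged 6.71 ± 0.34 in SL, 7.49 ± 0.28 in AB, 7.19 ± 0.11 in B, 6.28 ± 0.28 in A and 6.29 ± 0.22 in DN cells, with 1.20 ± 0.17 in AB over A cells (1.41e-05) and -0.77 ± 0.17 in SL over AB cells (0.00474, and 0.0824 with every replicate 4 left out). These values are of the brightest probe set. A second probe set of Mgst2 was at 0.06 in AB over A, -0.88 in AB against B and -1.11 in SL against DN cells. The result for Mgst2 in those comparisons thus depends on the probe set, and no direction is drawn from it. The counts of called genes use the brightest probe set. Mgst3 was 0.93 ± 0.21 higher in B than A cells (0.00228) and 1.67 ± 0.21 higher in SL than DN cells (2.26e-06). Gstz1, the zeta transferase of tyrosine breakdown, was the 1 transferase called lower in SL against DN, AB against A and B against A cells, with differences of -0.43 ± 0.10, -0.33 ± 0.10 and -0.51 ± 0.10 (0.00119, 0.0117 and 0.000409). Gstm5 and Gstk1 were not called in any of the 6 comparisons.

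Of 12 aldehyde dehydrogenases, 4 were higher and 1 lower in SL against DN cells (33.3% and 8.33%, beside 23.9% and 21.3% of all genes). Aldh1a1 makes retinoic acid from retinal and is among the enzymes linked to the aldehyde dehydrogenase activity used to sort progenitor cells. That activity was not measured here. The log2 signal of Aldh1a1 was 8.66, 7.88, 8.94 and 8.22 in SL cells, 7.95, 7.71, 7.71 and 8.10 in AB cells and 7.60, 7.24, 7.66 and 8.42 in B cells. Aldh1a1 was 7.79, 7.64, 7.32 and 7.79 in A cells and 5.89, 5.78, 6.60 and 6.74 in DN cells. DN arrays lay below all others, with 1.38 ± 0.25 in A over DN cells (0.00333), the largest called difference of any member in that comparison, and 2.17 ± 0.25 in SL over DN cells (7.95e-07). It did not pass the threshold in AB over A or B over A cells (0.23 and 0.09). Aldh3a1, which oxidizes medium-chain and aromatic aldehydes and is a known AHR target, was 8.49, 8.38, 8.72 and 8.93 in SL cells, 8.83, 9.01, 8.96 and 8.79 in AB cells and 8.27, 8.55, 8.57 and 8.31 in B cells. Aldh3a1 was 6.87, 7.13, 7.43 and 7.28 in A cells and 6.66, 6.30, 7.21 and 6.74 in DN cells. The step lay between B or AB cells and A cells, 1.25 ± 0.16 in B over A (6.5e-06) and 1.72 ± 0.16 in AB over A cells (8.75e-08), with no overlap, while A over DN cells gave 0.45 ± 0.16 (0.146).

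Aldh3a2, the fatty aldehyde dehydrogenase next to Aldh3a1 on chromosome 11, and Aldh2, the mitochondrial enzyme that clears acetaldehyde, had nearly the same means in SL, AB and B cells. Aldh3a2 averaged 8.22 ± 0.09 in SL, 8.23 ± 0.08 in AB, 8.25 ± 0.12 in B, 7.51 ± 0.22 in A and 7.37 ± 0.25 in DN cells. Aldh2 averaged 11.98 ± 0.12 in SL, 11.97 ± 0.13 in AB, 11.95 ± 0.13 in B, 11.56 ± 0.14 in A and 11.19 ± 0.19 in DN cells. Both rose in SL over DN cells, by 0.85 and 0.79 (6.77e-06 and 5.21e-06). The calls of Aldh2 in AB over A and B over A cells (0.00507 and 0.00863) were lost with only replicates 1 and 2 of B and AB (0.0696 and 0.0945). With the mean of all probe sets, Aldh2 was at 0.25 in AB over A cells (0.144), against 0.42 on the brightest probe set, and its dimmest probe set was at -0.04. Aldh1l2, a mitochondrial enzyme of one-carbon metabolism, ran the other way, with 6.27 ± 0.12 in SL, 6.26 ± 0.16 in AB, 6.40 ± 0.28 in B, 6.98 ± 0.46 in A and 6.91 ± 0.24 in DN cells. Its difference was -0.64 ± 0.18 in SL against DN (0.00739) and -0.72 ± 0.18 in AB against A cells (0.00463), the second lost with only replicates 1 and 2 of B and AB (0.0601). Aldh1l2, Aldh3b1 and Cyp39a1 did not reach an intensity of 100 on all 4 arrays of any population, with best group minima of 97.4, 90.3 and 89.5, while Cbr2, Rdh12 and Adh7 lay just above at 105, 112 and 114. A filter on any population can keep a gene through the population where it is high. Differences of such genes thus describe genes kept for a high signal somewhere. Aldh1a3, Aldh3b1, Aldh4a1, Aldh7a1 and Aldh9a1 were not called in any of the 6 comparisons.

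Among the reductases of aldehydes, ketones and quinones, 4 of 9 were higher and 0 lower in SL against DN cells. Those higher are 44.4%, beside 23.9% of all genes, and 21.3% of all genes were lower. Akr1b8, an aldose reductase-like enzyme that reduces lipid aldehydes, averaged 7.29 ± 0.34 in SL, 6.83 ± 0.49 in AB, 6.66 ± 0.19 in B, 5.94 ± 0.19 in A and 5.29 ± 0.31 in DN cells. Its difference was 1.99 ± 0.21 in SL over DN cells (1.93e-07). The best group minimum of Akr1b8 was an intensity of 120, in SL cells. It may thus have passed the signal filter through the cells where it is high. Cbr3 and Cbr1, carbonyl reductases that lie near each other on chromosome 16, rose in SL over DN cells by 0.89 ± 0.11 and 0.59 ± 0.15 (2.41e-06 and 0.0023), and Nqo2, a quinone reductase, by 0.58 ± 0.12 (0.000688). Cbr2, a carbonyl reductase known from lung, was 6.60, 7.21, 7.22 and 6.46 in SL cells, 6.12, 5.75, 6.03 and 6.35 in AB cells and 5.85, 6.19, 6.33 and 5.76 in B cells. Cbr2 was 6.78, 6.71, 6.88 and 7.14 in A cells and 7.03, 6.96, 6.63 and 7.01 in DN cells. Its A arrays lay above all AB and B arrays and its SL arrays above all AB arrays, with -0.81 ± 0.18 in AB against A (0.00135), -0.84 ± 0.18 in B against A (0.00109) and 0.81 ± 0.18 in SL over AB cells (0.0049). Akr1a1, an aldehyde reductase, had group means from 11.50 to 11.65 and was not called in any of the 6 comparisons.

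The alcohol and retinol dehydrogenases handle ethanol, formaldehyde and the first step from retinol to retinal. Adh1, the classical liver alcohol dehydrogenase, was 9.72, 9.14, 9.68 and 9.0 in SL cells, 8.11, 8.60, 8.20 and 8.48 in AB cells and 7.19, 7.26, 8.62 and 8.68 in B cells. Adh1 was 8.21, 7.85, 7.77 and 7.73 in A cells and 7.74, 7.05, 7.68 and 7.85 in DN cells. All SL arrays lay above all other arrays, and the B arrays split into replicates 1 and 2 at 7.19 and 7.26 and replicates 3 and 4 at 8.62 and 8.68, the same arrays that split for Ly6a. SL cells exceeded DN cells by 1.81 ± 0.29 (4e-05) and AB cells by 1.04 ± 0.29 (0.0264), the second lost without replicate 1 or 3 of SL or replicate 1 or 3 of AB (adjusted p from 0.0682 to 0.0931). Rdh10, which oxidizes retinol in development, fell in SL against DN cells, -0.57 ± 0.13 (0.0011), and Rdh11 in AB against A, -0.55 ± 0.14 (0.00457), and in B against A cells, -0.58 ± 0.14 (0.00338). Rdh12 had its highest mean in B cells, 6.23 ± 0.35 in SL, 6.62 ± 0.27 in AB, 7.10 ± 0.23 in B, 6.79 ± 0.17 in A and 6.60 ± 0.31 in DN cells, and was called by the F test (0.00604) but in no pair; with the replicate block it was called lower in AB than B cells (difference -0.49, adjusted p = 0.0272). For Rdh5 the brightest probe set rose by 0.78 in SL over DN cells, while its other 3 probe sets were at -0.80, -0.17 and -0.28, so no direction is given. Adh5, the formaldehyde dehydrogenase, had group means from 10.71 to 10.80 and was not called in any of the 6 comparisons.

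Genes that bind retinoids or sense them, from a list chosen beside the members, were called higher for 6 of 11 (54.5%) and lower for 1 (9.09%) in SL against DN cells, beside 23.9% and 21.3% of all genes. Crabp2, which carries retinoic acid to its receptors, averaged 8.37 ± 0.21 in SL, 7.88 ± 0.59 in AB, 6.82 ± 0.37 in B, 7.22 ± 0.35 in A and 7.02 ± 0.09 in DN cells. It was 1.35 ± 0.23 higher in SL than DN cells (9.09e-05). Rbp4, the secreted retinol carrier, was lower, with -0.59 ± 0.14 in SL against DN (0.00187) and -1.38 ± 0.14 in B against A cells (4.42e-07). Rxrg, a retinoid X receptor, was the 1 gene of the list called higher in A over DN cells, 1.04 ± 0.24 (0.018).

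Of the 3 superoxide dismutases, 1 was higher and 1 lower in SL against DN cells (33.3% each, beside 23.9% and 21.3% of all genes). Sod3, the secreted enzyme bound to matrix, was 10.80, 10.91, 10.97 and 11.10 in SL cells, 9.53, 9.40, 9.96 and 10.18 in AB cells and 9.02, 9.23, 9.96 and 10.12 in B cells. Sod3 was 9.27, 9.92, 10.34 and 10.32 in A cells and 9.14, 9.40, 9.52 and 9.77 in DN cells. All SL arrays lay above all other arrays, 1.49 ± 0.25 over DN (6.49e-05) and 1.18 ± 0.25 over AB cells (0.00356), and replicates 3 and 4 were the higher arrays in AB, B, A and DN cells. In A over DN and B against A cells, with 0.50 and -0.38, Sod3 did not pass the threshold (0.335 and 0.276). With the replicate block it did (0.0406 and 0.0421). Sod2, the mitochondrial enzyme, fell in SL against DN cells, at 8.44 ± 0.11 against 8.81 ± 0.10 (difference -0.37 ± 0.09, adjusted p = 0.00256). In AB against A cells Sod2 had a difference of -0.24 ± 0.09 (adjusted p = 0.0522, and 0.0283 with the replicate block). Sod1, the cytosolic enzyme, was between 11.43 and 11.55 in all populations and not called in any of the 6 comparisons, with a 95% interval of -0.11 to 0.20 for SL minus DN.

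Gpx3, the secreted glutathione peroxidase, was higher in B and AB than A cells. It was 12.82, 12.62, 12.81 and 12.75 in SL cells, 13.27, 13.30, 13.17 and 13.26 in AB cells and 13.19, 13.26, 13.30 and 13.06 in B cells. Gpx3 was 12.71, 12.41, 12.65 and 12.44 in A cells and 12.39, 12.43, 12.18 and 12.14 in DN cells. B and AB arrays lay above all A arrays, by 0.65 ± 0.09 (1.93e-05) and 0.70 ± 0.09 (6.85e-06), and SL cells were between, 0.47 ± 0.09 over DN (0.000333) and -0.50 ± 0.09 against AB cells (0.00115). Gpx1, the main cytosolic peroxidase, rose by 0.58 ± 0.14 in SL over DN cells (0.00223) and by 0.43 ± 0.14 in B over A cells (0.0261). The second call was lost without replicate 3 or 4 of B or replicate 2 of A (adjusted p = 0.092, 0.0666 and 0.0974). Gpx7 and Gpx8, which act in the endoplasmic reticulum, were not called in any of the 6 comparisons.

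**Figure D4:**
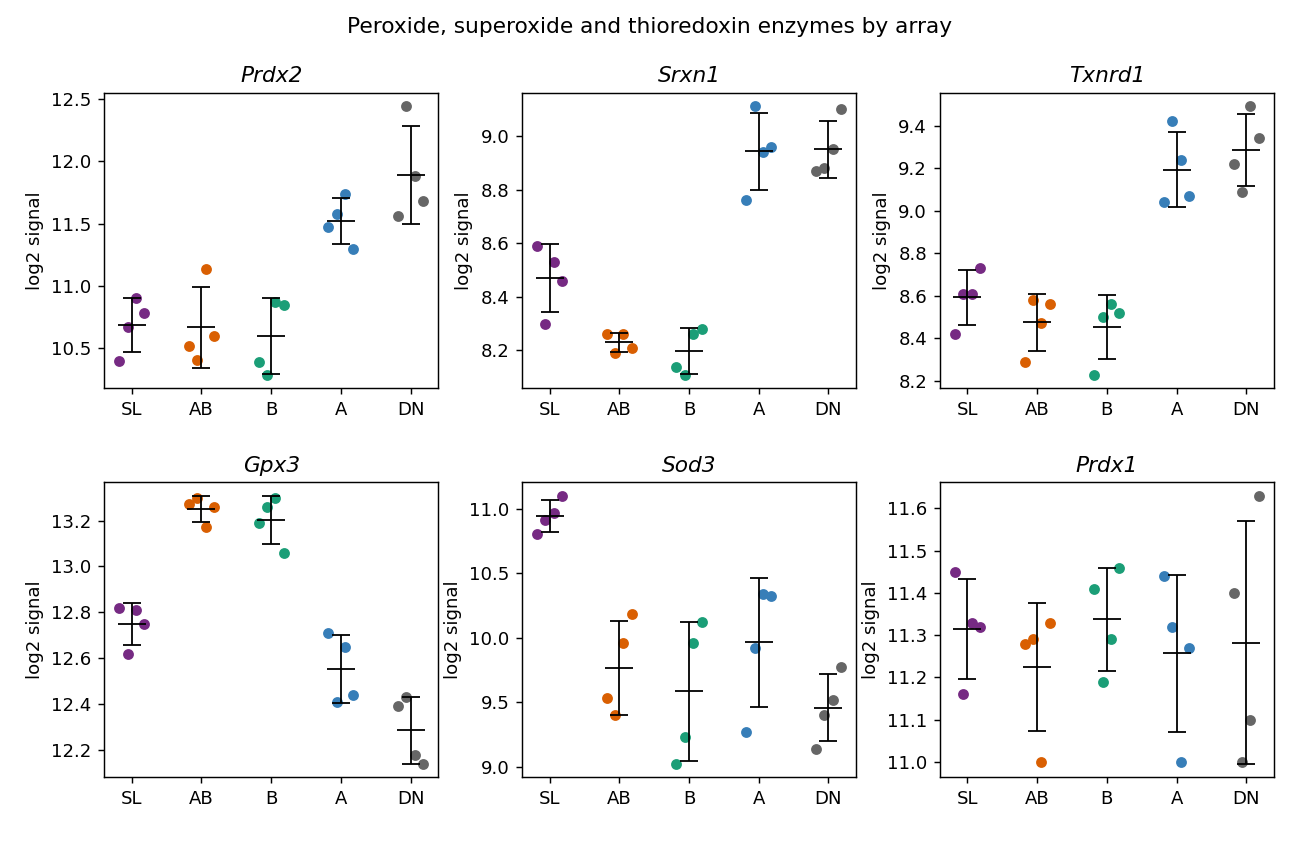
Log2 signal of Prdx2, Srxn1, Txnrd1, Gpx3, Sod3 and Prdx1 on each array (points) in the 5 populations, with the mean and SD of 4 arrays (bars). The axes do not start at 0 and differ between genes; Prdx2, Srxn1 and Txnrd1 are lower in SL, AB and B cells than in A and DN cells, and Prdx1 spans 11.23 to 11.34 in its group means.

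Of the peroxiredoxins, abundant thiol peroxidases, Prdx2 and Prdx6 were lower in SL against DN cells. Prdx2, a cytosolic peroxiredoxin that is very abundant in red blood cells, was 10.40, 10.67, 10.90 and 10.78 in SL cells, 10.52, 10.41, 11.14 and 10.60 in AB cells and 10.39, 10.29, 10.87 and 10.85 in B cells. Prdx2 was 11.47, 11.58, 11.74 and 11.30 in A cells and 11.56, 12.44, 11.88 and 11.68 in DN cells. All SL, AB and B arrays lay below all A and DN arrays, with -1.20 ± 0.19 in SL against DN (3.74e-05), -0.86 ± 0.19 in AB against A (0.00163) and -0.92 ± 0.19 in B against A cells (0.000942), the largest fall of any member in each of those 3 comparisons. The erythroid list (3 measured genes) averaged 6.74 to 7.85 in SL, 7.31 to 8.75 in AB, 8.20 to 9.01 in B, 8.16 to 8.69 in A and 7.48 to 8.54 in DN cells. Its gene Alas2 was 9.59 to 10.57 in B cells against 9.21 to 9.90 in A and 8.04 to 9.77 in DN cells. Of the 3 genes of the list, 1 was called lower in each of SL against DN, AB against A and B against A cells, and 0 were called higher. Of all genes, 21.3%, 15.2% and 14.6% were lower and 23.9%, 17.7% and 15.1% higher. The part of red cell RNA in the level of Prdx2 was not tested. Prdx6 was lower in SL than DN cells, -0.35 ± 0.13 (0.0357), a call lost without replicate 1, 2 or 4 of SL or replicate 1 or 4 of DN (adjusted p from 0.0564 to 0.107). Prdx1, Prdx3, Prdx4 and Prdx5 were not called in any of the 6 comparisons; for Prdx1 the group means spanned 0.11 log2 units.

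Sulfiredoxin and thioredoxin reductase, which restore oxidized peroxiredoxins and thioredoxin, fell in the same 3 comparisons. Srxn1 was 8.59, 8.30, 8.53 and 8.46 in SL cells, 8.26, 8.19, 8.26 and 8.21 in AB cells and 8.14, 8.11, 8.26 and 8.28 in B cells. Srxn1 was 8.76, 9.11, 8.94 and 8.96 in A cells and 8.87, 8.88, 8.95 and 9.10 in DN cells. SL, AB and B arrays were all below the A and DN arrays, by -0.48 ± 0.09 in SL against DN (0.000138), -0.71 ± 0.09 in AB against A (2.46e-06) and -0.75 ± 0.09 in B against A cells (1.98e-06). Txnrd1 was 8.42, 8.61, 8.61 and 8.73 in SL cells, 8.29, 8.58, 8.47 and 8.56 in AB cells and 8.23, 8.50, 8.56 and 8.52 in B cells. Txnrd1 was 9.04, 9.42, 9.24 and 9.07 in A cells and 9.22, 9.09, 9.49 and 9.34 in DN cells. Its differences were -0.69 ± 0.11 (4.3e-05), -0.72 ± 0.11 (4.66e-05) and -0.74 ± 0.11 (3.82e-05) in the same comparisons. The 12 measured immediate early and stress genes that rise during tissue dissociation averaged 10.72 to 11.01 in SL, 10.48 to 11.06 in AB, 10.44 to 11.04 in B, 11.36 to 11.54 in A and 11.52 to 11.63 in DN cells. Of them, 11 of 12 were lower in SL against DN cells and 12 of 12 in AB against A and B against A cells. Of all genes, 21.3%, 15.2% and 14.6% were lower in these 3 comparisons. Of the chondrocyte list, 10 of 11 genes were lower in each of these comparisons. The 7 Schwann cell genes, of which 6, 7 and 6 were lower, averaged 6.62 to 7.10 in SL, 6.67 to 7.34 in AB, 7.28 to 8.11 in B, 8.94 to 9.23 in A and 9.23 to 9.60 in DN cells. Their part in the levels of Prdx2, Srxn1 and Txnrd1 was not tested.

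Other thioredoxin family genes were called in both directions. Txn1, thioredoxin itself, rose in SL over DN cells by 0.47 ± 0.11 (0.0016), and Txnip by 0.48 ± 0.12 in SL over DN (0.00316) and 0.44 ± 0.12 in AB over A cells (0.00804, and 0.0665 with only replicates 1 and 2 of B and AB). Its call in B over A cells, 0.41 ± 0.12 (0.0159), was lost without replicate 3 of B (0.0555) or replicate 1 or 2 of A (0.0574 and 0.0527). Txndc8, a thioredoxin known from testis, differed by -0.60 ± 0.11 in SL against DN cells (0.000253), and Txndc16, a thioredoxin-domain protein of the endoplasmic reticulum, rose by 0.50 ± 0.13 (0.00289). Txn2, the mitochondrial thioredoxin, was not called in any of the 6 comparisons. Of the 2 subunits of glutamate-cysteine ligase, the rate-limiting enzyme of glutathione synthesis, the catalytic Gclc was not called in any of the 6 comparisons. The modifier Gclm was higher in B than A cells, 0.40 ± 0.13 (0.0265), lost without replicate 1 or 4 of B or replicate 1 or 3 of A (adjusted p from 0.0633 to 0.094), and its difference in AB over A cells, 0.29 (0.102), had an adjusted p of 0.0372 with the replicate block.

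**Figure D5:**
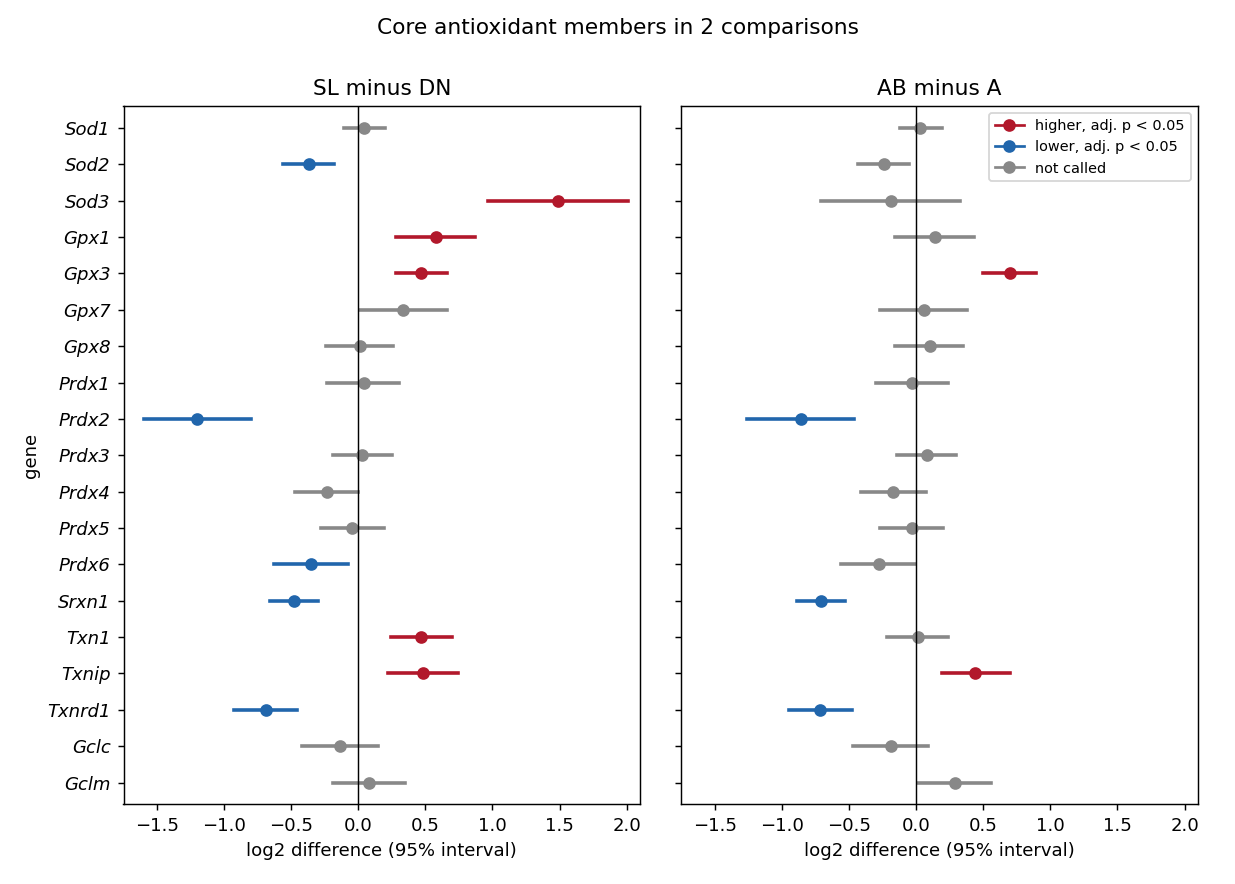
Log2 difference (points) with its 95% interval (lines) of 19 core antioxidant genes in SL minus DN (left) and AB minus A cells (right), red where higher, blue where lower and grey where not called at an adjusted p under 0.05. Prdx2, Srxn1 and Txnrd1 are lower in both, Gpx3 and Txnip higher in both, and Sod3 is higher in SL minus DN with a difference of 1.49.

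NRF2 with small MAF proteins binds the antioxidant response element, whose core TGACNNNGC was searched on both strands in the same RefSeq promoter windows. It was held by 11 of the 66 genes with a promoter, 16.7%, against 14% of 27025 genes, again all genes with a RefSeq promoter and not only those tested. The 11 were Aldh9a1, Cyp4f18, Gclm, Gstm5, Mgst1, Prdx1, Sod1, Srxn1, Txndc11, Txndc5 and Txnrd1, of which 2 were higher and 2 lower in SL against DN cells. Among all 66, 27 were higher and 6 lower. Windows of 4 of them are shown since they hold the same core beside 4 different patterns of level: Mgst1 had the largest rise, Txnrd1 fell, Prdx1 was not called and Gclm was higher in B than A cells. The match is in capitals and in each reads on the strand opposite to the gene.
Mgst1: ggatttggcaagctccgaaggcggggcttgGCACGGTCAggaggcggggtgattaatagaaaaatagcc
Txnrd1: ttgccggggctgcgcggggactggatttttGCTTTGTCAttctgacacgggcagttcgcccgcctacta
Prdx1: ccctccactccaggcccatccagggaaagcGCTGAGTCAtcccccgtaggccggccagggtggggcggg
Gclm: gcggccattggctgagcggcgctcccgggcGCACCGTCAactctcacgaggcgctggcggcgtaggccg
They lie at chr6:138140441-138140509, chr10:82859084-82859152, chr4:116685436-116685504 and chr3:122245393-122245461 on the plus strand, and the matches begin 56, 92, 133 and 134 bases before the start. None of the 4 overlaps a GCGTG match.

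Regulators and other targets of NRF2, 25 measured genes chosen beside the members, had 5 higher and 5 lower in SL against DN cells. These are 20% each way, close to the 23.9% and 21.3% of all genes. Nfe2l2, which codes for NRF2, was 9.12 ± 0.10 in SL and 8.35 ± 0.36 in DN cells, higher by 0.77 ± 0.15 (0.00028). Its binding partners Maff and Mafk fell in SL against DN, AB against A and B against A cells, with -1.03 and -1.02 in the first (3.02e-05 and 2.27e-05), beside the fall of the dissociation genes given above. Me1, the malic enzyme that makes NADPH, was 8.19 in SL, 7.82 in AB, 8.04 in B, 9.18 in A and 9.54 in DN cells. That is a difference of -1.35 ± 0.09 in SL against DN (7.72e-10). Gsr, glutathione reductase, averaged 6.50 in SL, 7.28 in AB, 7.40 in B, 7.42 in A and 7.26 in DN cells, with -0.78 ± 0.19 in SL against AB cells (0.00995). Hmox1, Cat and Keap1 were not called in SL against DN cells (0.129, 0.254 and 0.0817).

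Of 7 genes of the AHR pathway, 3 were higher and 1 lower in SL against DN cells. These are 42.9% and 14.3% of a short list, beside 23.9% and 21.3% of all genes. Ahr was 7.48 ± 0.40 in SL and 6.02 ± 0.47 in DN cells (1.46 ± 0.26, adjusted p = 0.000129), with 6.94 in AB, 6.61 in B and 6.27 in A cells. Arnt2, a partner of the AHR class of factors, rose by 0.94 ± 0.11 in SL over DN (1.05e-06) and by 0.67 ± 0.11 in AB over A cells (9.75e-05). Tiparp, an AHR target that limits its activity, was lower, -0.80 ± 0.18 in SL against DN cells (0.00109).

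Enzymes that feed electrons to the P450 system were also tested: of 15 genes for electron donors and haem synthesis, 4 were higher and 2 lower in SL against DN cells (26.7% and 13.3%, beside 23.9% and 21.3% of all genes). Por, the reductase that supplies microsomal P450 enzymes, was 8.95 in SL, 8.81 in AB, 8.56 in B, 8.30 in A and 8.02 in DN cells. Cyb5a, cytochrome b5, was 1.54 ± 0.13 higher in SL than DN cells (7.37e-09), and its reductase Cyb5r3 1.10 ± 0.07 (5.29e-10). The 2 lower genes, Cpox and Uros of haem synthesis, were at -0.41 ± 0.15 (0.0305) and -0.31 ± 0.12 (0.0479). Among 10 selenoprotein genes, 4 were higher and 1 lower in SL against DN cells (40% and 10%), among them Sepp1, the secreted selenium carrier, at 10.73 in SL, 11.15 in AB, 10.80 in B, 9.95 in A and 9.28 in DN cells. Glutathione handling genes numbered 12, with 2 higher and 2 lower in SL against DN cells (16.7% each, under the share of all genes). Dpep1, a membrane dipeptidase of the last step of glutathione breakdown, was 9.80 in SL, 10.09 in AB, 8.50 in B, 7.69 in A and 5.76 in DN cells. Chac1, a stress-induced enzyme that degrades glutathione in the cytosol, was 6.22 in SL, 5.61 in AB, 6.07 in B, 7.86 in A and 8.27 in DN cells. Of 13 oxidant-producing genes, 7 were higher and 1 lower in SL against DN cells (53.8% and 7.69%). Nox4, which makes hydrogen peroxide, was 7.71 in SL, 7.71 in AB, 7.63 in B, 5.49 in A and 5.22 in DN cells, with 2.13 ± 0.16 in B over A cells (2.09e-08). Aoc3, an amine oxidase known from vessel walls, peaked in B cells at 9.68, against 7.64 in A cells (8.86e-07). The 9 pericyte and smooth muscle markers peaked there too, at 9.01 to 10.07 in B against 7.45 to 8.08 in A cells, and their part in it was not tested.

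Several of the genes lie side by side in the genome. Positions were given in the authors' deposited comparison tables for 78 of the 81 genes, and all 78 overlapped the RefSeq gene of the same symbol on GRCm38.p6. On these positions 12 pairs of neighbouring members were at most 200 kb apart. Fmo1 and Fmo2 (chr1:162829561-162866610 and chr1:162874317-162898726, 7.7 kb apart) both rose in SL over DN cells, as did Gstt3 and Gstt1 (2.4 kb), Aldh3a1 and Aldh3a2 (5.0 kb) and Cbr1 and Cbr3 (72.7 kb). Neighbours also differed. Akr1b8 rose by 1.99 and Akr1b10, 15.8 kb away, was at -0.08 (0.717). Adh1 rose by 1.81 beside Adh7 at -0.37 (0.0757) and Adh5 at 0.00. Txn1 rose while Txndc8, 27.6 kb away, fell.

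In all, 28 of the 81 genes were called neither by the F test nor in any of the 6 comparisons. Rdh12 and Aldh18a1, called by the F test (adjusted p = 0.00604 and 0.0487) but in no comparison, are not among them. With the replicate block, Aldh18a1 was called lower in AB than A cells (difference -0.20, adjusted p = 0.0447, against 0.135 as reported). The widest range of group means among the 28 was 0.54 log2 units, for Cyp26b1. They included Sod1, Prdx1, Prdx3, Prdx4, Prdx5, Gpx7, Gpx8, Txn2 and Gclc. A p-value above the threshold does not show equal levels, and the intervals of these genes for SL minus DN reached from -0.72 for Adh7 to 0.66 for Gpx7.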

How the data were processed

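Cells of 5 sorted populations were profiled on expression arrays, 20 in all and 4 per population, named by the labels. The authors deposited an intensity table of 12440 probe sets, whose name reads as a filter at a signal of 100 in any group, and a series table of log2 values for 24539 probe sets. The log2 of the intensities differed from the deposited log2 values by at most 0.0075. Array type, summarisation and normalization: not given in the sources used here; array medians were already level. Gene symbols came from the intensity table, in which 83 probe sets had none, and positions from the authors' deposited comparison tables.

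The brightest of a gene's probe sets gave 9129 genes. Group means were fitted to the log2 values with limma 3.58.1 in R 4.3.3 over all 20 arrays (15 residual and 4.34 prior degrees of freedom), with Benjamini-Hochberg adjustment over all genes and a threshold of 0.05. The script was tested on simulated data. The number of arrays limits the precision; the median residual SD was 0.185. Values named as differences carry the SE of the fit, p-values in brackets are adjusted, and group means carry the SD.

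Same-numbered arrays deviated together in every pair of replicates (r above 0.1) for AB with A (0.185 to 0.398) and AB with B (0.17 to 0.422), so the fit with the replicate number as a block is given beside those results where it changed a call. In the other comparisons they did not in every pair of replicates. The block is given there for Mgst1 and Sod3 only. The genes, the pathway lists and the marker lists were chosen with earlier results of these data known, and support nothing by themselves. The text names, for each comparison, up to 5 called genes per direction by size of difference, every core antioxidant gene, the 4 genes of each class with the widest range, the 6 with the highest mean, those nearest the signal filter, and up to 4 genes of each pathway list; genes outside this rule (Gstz1, Nqo2, Cyp20a1, Gstt3, those named as neighbours or as not called, and regulators) were chosen after their values were seen, and calls of Gstz1 and Nqo2 were not run under the alternatives. Alternatives were quantile normalization, no filter, the mean of all probe sets, the replicate block, fewer groups or arrays, and a trended robust fit. Promoters were RefSeq sequences of GRCm38.p6, matched by symbol. A gene of the retinoid list is not reported here.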

Additional observations from a re-analysis of the deposited data

Results flagged for a closer look

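A single array stood far from the other 3 of its population in 13 of 245 gene and population combinations tested with Dixon's criterion at the 95% level, and chance alone flags about 1 in 20. Txnip had 3 of them, each at replicate 3: 12.66 in SL replicate 3, against 12.45 to 12.48 on the other SL arrays, 12.48 in A replicate 3, against 11.94 to 12.03, and 12.31 in DN replicate 3, against 11.91 to 11.95. Among the oxidation and conjugation genes, Fmo2 was 8.70 in AB replicate 2 (others 7.95 to 8.04), Cyp1b1 was 8.12 in B replicate 4 (others 7.33 to 7.45), and Gsta4 was 6.63 in SL replicate 1 (others 6.24 to 6.29). Of the aldehyde and carbonyl enzymes, Cbr3 was 7.12 in A replicate 3 (others all 7.02) and Aldh2 was 10.90 in DN replicate 2 (others 11.26 to 11.31). Among the redox genes, Gclc was 7.15 in SL replicate 4 (others 7.00 to 7.02), Gpx7 was 10.27 in B replicate 1 (others 9.93 to 9.98) and Txnrd1 was 8.23 in B replicate 1 (others 8.50 to 8.56). Prdx1 was 11.00 in AB replicate 3 (others 11.28 to 11.33), and Prdx4 was 10.41 in A replicate 3 (others 10.71 to 10.77).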

How the results depend on the processing

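The count of genes that differed among the populations was 46 to 51 with any 1 array left out, and 53 with the replicate block. Counts of the F test over all genes were not made for these settings. With any 1 array left out, the counts called were 6 to 9 in A against DN (8 as reported), 39 to 43 in SL against DN (42), 30 to 35 in AB against A (34), 26 to 34 in B against A (34), 2 to 3 in AB against B (2) and 7 to 11 in SL against AB cells (11). The 7 came without AB replicate 1, AB replicate 3 or SL replicate 3. Over all 9129 genes, the fits with 1 array left out called 179 to 341, 3679 to 4169, 2522 to 3080, 2252 to 2791, 79 to 194 and 598 to 911, in the same order of comparisons. With only the A and DN arrays in the fit, 5 genes were called in A against DN cells, a fit with fewer samples. It called 167 of all genes, fewer than the fit as reported. With the replicate block, 11, 47, 37, 38, 3 and 14 genes were called in the same order of comparisons. Of all genes, that fit called 546, 4442, 3319, 3155, 321 and 1168, more than the fit as reported in each comparison. Numbers paired the arrays only for AB with A and AB with B. Leaving out every replicate 4, a choice made after seeing the data because blood cell lists were highest on those arrays in several populations, gave 6, 40, 31, 30, 2 and 10. All genes were not counted for that fit. With B and AB from replicates 1 and 2 alone, 27 genes were called in AB against A (21 higher) and 26 in B against A cells (15 higher).

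Over 110 combinations of a named gene and a comparison, each under 8 settings, 830 of 880 kept their direction and side of the threshold and 46 lost the call. The other 4 reversed, all with the mean of all probe sets of a gene: Rdh5 gave -0.12 in SL against DN, -0.17 in AB against A and -0.01 in B against A cells, and Mgst2 gave -0.34 in SL against DN cells. Here the other probe sets of these genes ran against the brightest. Without the filter, the fit covered all probe sets of the series table, since those outside the filtered table have no symbol here. Signal over background could not be judged per probe set.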
